A study of Mus musculus with 40 samples.

Results

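Hearts of CM-Il11-Tg mice taken 6 weeks after induction of *Il11* were compared with hearts of uninduced mice of the same genotype, within males and within females. CM-Il11-Tg mice carry 1 copy of α-MHC-MerCreMer, a tamoxifen-activated Cre recombinase driven by a cardiomyocyte promoter, and 1 copy of *Rosa26-Il11*, a mouse *Il11* transgene that Cre switches on. The 6-week mice received tamoxifen on 5 days from 8 weeks of age, and the uninduced mice carried both alleles and received no tamoxifen. The age of the uninduced mice is not given in the sources used here. Hearts of control mice, which carry α-MHC-MerCreMer without *Rosa26-Il11* and received tamoxifen, are shown beside both groups as the background. The libraries were chosen by their labels: 3 male and 4 female 6-week hearts and 4 male and 4 female uninduced hearts, 15 of the 40 libraries of the series, each from 1 mouse. There were 3 male and 4 female control hearts. In 2 male libraries the labels named both control and 6 weeks, and these entered no comparison. The 6-week and uninduced hearts differ in tamoxifen, in the activity of Cre and possibly in age as well as in *Il11*, and these cannot be told apart here. Sex cannot be told apart from table, because the authors deposited 1 table for each sex.

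The quantity compared was the abundance of polyadenylated RNA, in CPM, reads scaled to a common library size. Between 16663513 and 49961134 reads on listed genes lay behind each of the 15 libraries. The share of CPM from the mitochondrial genome was 17.2 to 24.0% in uninduced and 18.3 to 26.5% in 6-week male hearts, which overlap, and 24.0 to 27.6% and 15.8 to 22.5% in females, which do not. *Malat1*, an RNA kept in the nucleus, was under 400 CPM in 1 of 3 male and 3 of 4 female 6-week hearts, and in 0 of 4 male and 1 of 4 female uninduced hearts. With a term for these libraries the number of genes called below was 898 in males and 919 in females, against 948 and 954 without it. In males the term covered only 6-week replicate 4, so there it amounted to leaving that heart out. Female uninduced replicate 3 held levels of several induced genes near those of 6-week hearts, and female 6-week replicate 2 held atrial transcripts that the other hearts lacked; results that either moves across the threshold or by over 1.5 times are given with and without it.

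IL-11 is a secreted cytokine of the IL-6 family. It binds a specific receptor, encoded by *Il11ra1* in the mouse, which pairs with the shared signalling chain gp130, encoded by *Il6st*, and starts JAK kinase, STAT3 and ERK signalling in the receiving cell. In the heart its receptor is known mainly from fibroblasts and other stromal cells, where the cytokine promotes matrix production, so transcripts of both the secreting muscle and the cells around it are of interest.

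STAT3 binds DNA at sites of the form TTCNNNGAA, which reads the same on both strands. In the RefSeq table of mouse promoters (GRCm38.p6), 7.02% of the 32851 windows held at least 1 such site within the 250 bases before the gene start. Of the 15 most induced genes, 10 had a window, and none of these windows held these letters. The stretches below are from the 4 acute phase or STAT3 feedback genes that rose in both sexes and whose window held a match, and were picked after the matches were seen. They are shown because none of the 10 most induced genes that had a window held a match, and only windows with a match were kept. Genes without a window could not be searched. Capitals mark the match, and each stretch is written 5′ to 3′ on the strand of the gene.
*Itih4*, chr14:30886415-30886443, plus strand, 51 bases before the start: aaacctgcatTTCCGAGAActtgcaccag
*Socs3*, chr11:117969502-117969530, minus strand, 154 bases before the start: gaaaccagccTTCTTAGAAgggagggggg
*Serpina3g*, chr12:104236104-104236132, plus strand, 33 bases before the start: taagttatagTTCCCAGAAatcacccggt
*Reg3b*, chr6:78370746-78370774, plus strand, 129 bases before the start: agcctgttctTTCTTGGAAactctttgag
The male call of *Reg3b* was lost when single hearts were left out (0.77 to 1.26, adjusted p = 0.0627 to 0.174, without 6-week replicate 1 or uninduced replicate 2 or 4). A match is a description of the letters and was not tested for binding. Windows were available for fewer than 80% of the genes called, so no share of called genes is set against the share of all windows.

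*Il11* itself rose strongly in both sexes but was not silent before induction. The gene lies on chromosome 7 at 4775372 to 4785858 (GRCm39, minus strand), and reads of the transgene and of the native gene were not separated. In males *Il11* stood at 0, 0.114 and 0.147 CPM in the 3 control hearts, 18.4, 23.3, 20.1 and 16.5 CPM in the uninduced hearts and 485, 407 and 819 CPM after 6 weeks. In females the values were 0.0431, 0.145, 0 and 0.166 CPM in controls, 21.2, 21.4, 49.1 and 15.5 CPM in uninduced hearts and 497, 436, 328 and 590.5 CPM after 6 weeks. No library of any of the 3 groups overlapped the next, so uninduced CM-Il11-Tg hearts already held more *Il11* RNA than control hearts. The 6-week hearts exceeded the uninduced hearts by 4.77 ± 0.23 (SE) on the log2 scale in males (limma with Benjamini-Hochberg adjustment, adjusted p = 1.12e-10) and by 4.19 ± 0.24 in females (adjusted p = 2.72e-10). An exact permutation test, two-sided, gave p = 0.0286 in each sex, the smallest that these group sizes allow (0.0419 after Benjamini-Hochberg adjustment over 22 such tests, on 11 genes in each sex).

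**Figure D1:**
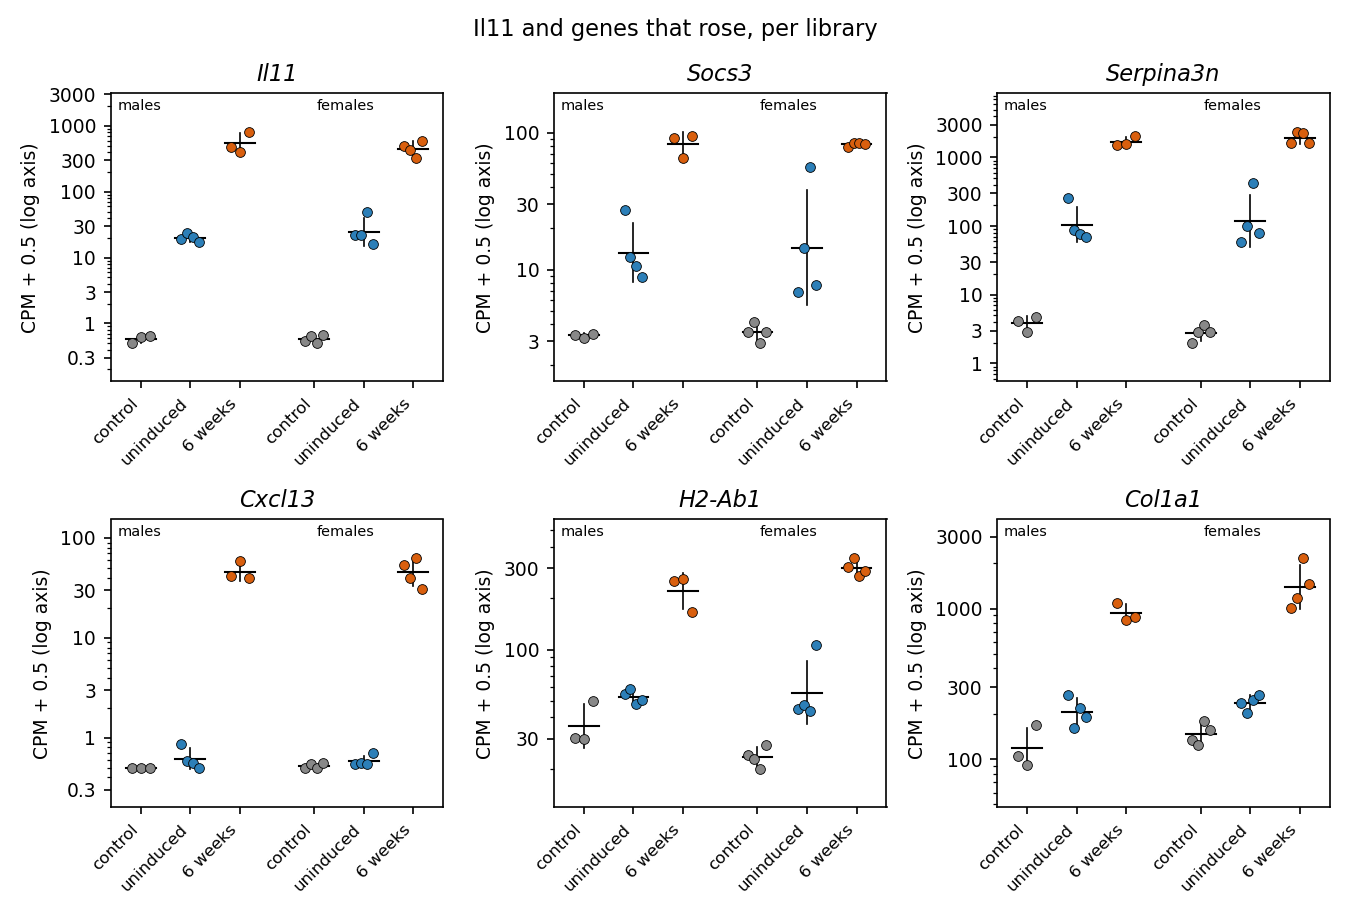
CPM of *Il11*, *Socs3*, *Serpina3n*, *Cxcl13*, *H2-Ab1* and *Col1a1* in each library of control, uninduced and 6-week hearts, males and females side by side, on a log axis of CPM + 0.5, where each point is 1 heart and bars give the mean and SD of the log2 values. Every 6-week point lies above every uninduced point of the same sex for each of the 6 genes; *Il11* in uninduced hearts ran from 15.5 to 49.1 CPM, above the highest control.

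Across all genes, the changes were mostly increases. A gene was called where the adjusted p was under 0.05 and the log2 fold change at least 1 in size. In males 948 of 16931 genes tested were called (5.6%), 860 higher (5.08%) and 88 lower (0.52%). In females 954 of 16956 were called (5.63%), 836 higher (4.93%) and 118 lower (0.696%). Of the 16627 genes tested in both sexes, 603 were called higher in both (3.63%) and 29 lower in both (0.174%), together 3.8%, and no gene was called in opposite directions. Of these genes, 945 were called in males (5.68%) and 942 in females (5.67%), so the shared calls are 66.9% of the male and 67.1% of the female ones. In 566 of the 603 and in 20 of the 29 the 6-week and uninduced libraries did not overlap in either sex. A call in both sexes already favours groups that do not overlap, so these counts follow in part from the selection. The share without overlap among all genes tested was not computed. Uninduced hearts differed much less from controls, with 65 genes called in males (0.384%) and 131 in females (0.773%), whereas 6-week hearts differed from controls in 1439 (8.5%) and 1986 (11.7%) genes. These comparisons share libraries with one another and are given side by side only.

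**Figure D2:**
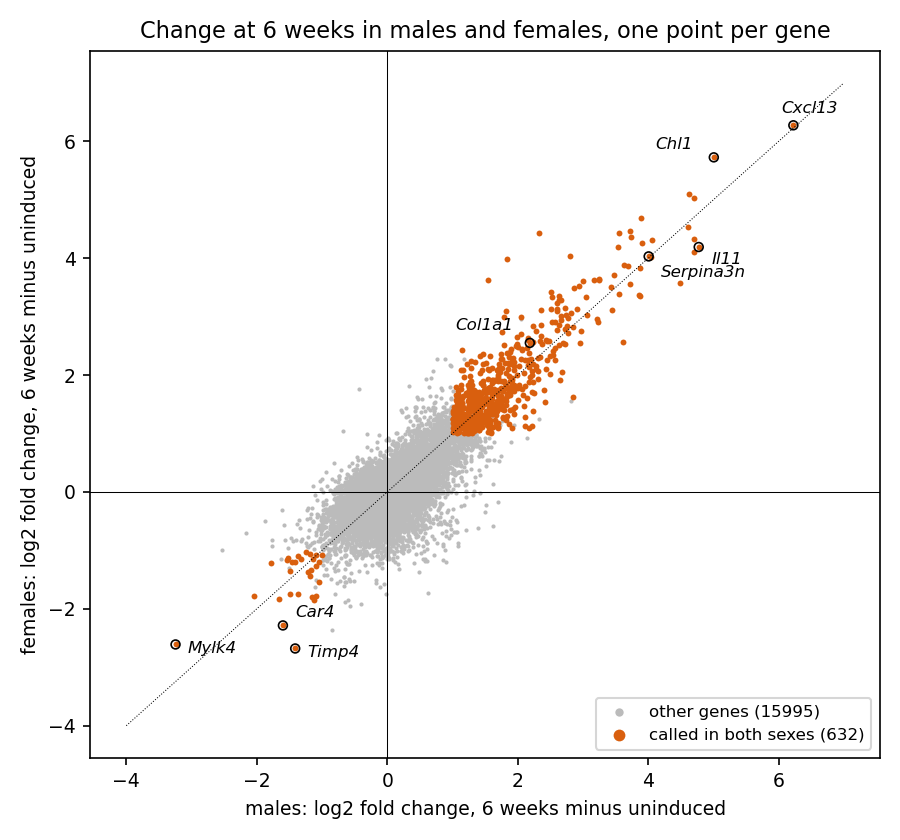
Log2 fold change of 6-week against uninduced hearts in males (horizontal axis) and in females (vertical axis), 1 point for each of the 16627 genes tested in both, with the 632 genes called in both in orange and the others in grey. The orange points lie only in the upper right and lower left of the plot, and across genes Pearson's r was 0.77 and Spearman's rho 0.56.

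For lists of genes below, a member rose or fell where its adjusted p was under 0.05, whatever its fold change. Of all genes tested, 13% rose and 7.4% fell in males and 13.7% rose and 9.08% fell in females, and these are the shares against which the lists are to be read. The median log2 fold change of all genes was -6e-04 in males and -0.025 in females. Fold changes of list members are given on the log2 scale, males before females. Each call and count was repeated with each heart left out in turn, and where this ended a call or moved a value or a count of 4 or more by over 1.5 times, the value without that heart is given. Counts of 3 or fewer moved by 1 to 3 members in this way in many lists, and larger moves are given.

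Of the IL-6 family ligands, 3 of 6 tested rose in males and 4 of 6 in females, and none fell. *Il11*, described above, was among these. *Ebi3*, a subunit of IL-27 and IL-35, rose by 0.85 and 0.77, a call lost in males when single hearts were left out (0.71 to 0.81, adjusted p = 0.0633 to 0.126, without 6-week replicate 4 or uninduced replicate 2 or 3). *Il6* was at 1.17 (adjusted p = 0.0821) in males and rose by 1.20 in females; in males it passed the test with edgeR, with DESeq2 and without 6-week replicate 4, where it was 1.73.

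Receptor transcripts rose modestly, 4 of 6 in each sex. *Il11ra1* rose by 0.51 and 0.83, *Il6st*, the gp130 chain, by 0.56 and 0.83, the IL-6 receptor *Il6ra* by 0.76 and 0.91 and the oncostatin M receptor *Osmr* by 1.30 and 0.97. *Lifr* and *Cntfr* did not pass the test in either sex. In males the calls of *Il11ra1* (0.42 to 0.50, adjusted p = 0.056 to 0.0977, without 6-week replicate 1 or 4 or uninduced replicate 1, 2 or 4) and of *Il6ra* (0.52 to 0.66, adjusted p = 0.0722 to 0.0976, without 6-week replicate 3 or 4) were lost when single hearts were left out, and the male count of receptors was 2 without 6-week replicate 4. Of the JAK and STAT genes themselves, 1 of 10 rose in each sex, *Jak3* in males (0.93) and *Jak2* in females (0.71), and *Stat3* was 0.31 (adjusted p = 0.141) in males and 0.17 (adjusted p = 0.4001) in females.

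Genes known to be induced through STAT3, several of which feed back on the pathway, rose in part. Of 17 tested, 8 rose in males, and 7 rose and 2 fell in females, where 10 rose without uninduced replicate 3. *Socs3*, the main inhibitor of gp130 signalling, was 26.7, 11.9, 10.1 and 8.28 CPM in uninduced and 91.4, 65 and 94.4 CPM in 6-week males. In females it was 6.42, 13.8, 56.1 and 7.28 CPM in uninduced and 77.7, 84, 83 and 82.1 CPM in 6-week hearts. The groups did not overlap, although female uninduced replicate 3 lay near the 6-week values. The log2 fold changes were 2.64 ± 0.25 (adjusted p = 3.31e-07) and 2.51 ± 0.39 (adjusted p = 7.21e-05) with limma. *Bcl3* (1.41 and 1.51), *Batf* (0.97 and 1.08), the IL-4 receptor chain *Il4ra* (1.94 and 1.83), the phosphatase gene *Ptpn1* (1.02 and 1.10) and *Socs1* (1.03 and 1.14) rose in both sexes, *Socs1* in males with an adjusted p of 0.0529 once 6-week replicate 4 was left out. The cytokine inhibitors *Socs2* (-0.43) and *Cish* (-0.72) fell in females, *Socs2* losing the call with single hearts left out (-0.39 to -0.36, adjusted p = 0.0618 to 0.0728, without 6-week replicate 2 or uninduced replicate 1).

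Acute phase genes, which encode secreted proteins made mostly by the liver in inflammation, rose widely: 17 of 23 tested rose in males and 17 of 24 in females, 15 of them in both, and none fell. The protease inhibitor gene *Serpina3n* was 256, 87.2, 77.1 and 69.9 CPM in uninduced and 1512, 1575 and 2039 CPM in 6-week males. Female hearts held 57.8, 101, 421 and 78.4 and 1606, 2378, 2254 and 1633 CPM. The 6-week values were separate from all uninduced ones, including female uninduced replicate 3, and the log2 fold changes were 4.01 ± 0.33 and 4.03 ± 0.38. *Hp*, encoding the haemoglobin carrier haptoglobin, was 7.15, 8.36, 6.54 and 4.91 CPM before and 199.7, 200.4 and 134 CPM after induction in males, and 2.81, 4.84, 5.42 and 1.13 and 162, 108, 134 and 96.9 CPM in females, log2 fold changes of 4.62 and 5.09. The groups were again separate.

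Other acute phase genes that rose in both sexes were the lipopolysaccharide-binding protein gene *Lbp* (3.55 and 3.39), *Ptx3* (2.52 and 3.42), the protease inhibitor gene *Timp1* (3.45 and 3.12) and *Itih4* (2.90 and 3.12). *Lcn2*, encoding lipocalin 2, differed: in males it was 7.34, 3.14, 2.47 and 2.61 CPM in uninduced and 23.2, 32.5 and 28.8 CPM in 6-week hearts, a log2 fold change of 2.82 ± 0.26 (limma, adjusted p = 3.31e-07). In females it was 0.809, 6.72, 78.8 and 2.75 CPM in uninduced and 22.2, 21.2, 28.6 and 12.2 CPM in 6-week hearts, with 1.55 ± 0.74 (limma, adjusted p = 0.137). Uninduced replicate 3 was above every 6-week female heart, and without it the female value was 2.72 (limma, adjusted p = 5.58e-05). The same held for *Lrg1*, with 1.14 ± 0.48 (limma, adjusted p = 0.0938) in all female hearts and 1.98 without that library. The lectin gene *Reg3a* was at most at 2 reads in each uninduced male heart, so its mean after 6 weeks was at least 32.8-fold higher than a floor of 3 reads, a limit that covers counting error only. *Serpina3n*, *Serpina3m* and *Serpina3g* are related genes of 1 family, as are the *Reg3* genes, and some reads may have been split between them. Genes made almost only by the liver, such as *Alb* and *Apoa1*, gave no call in either sex (0 of 4 and 0 of 5 tested), and the fibrinogen genes *Fga* and *Fgg* did not pass the test.

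**Figure D3:**
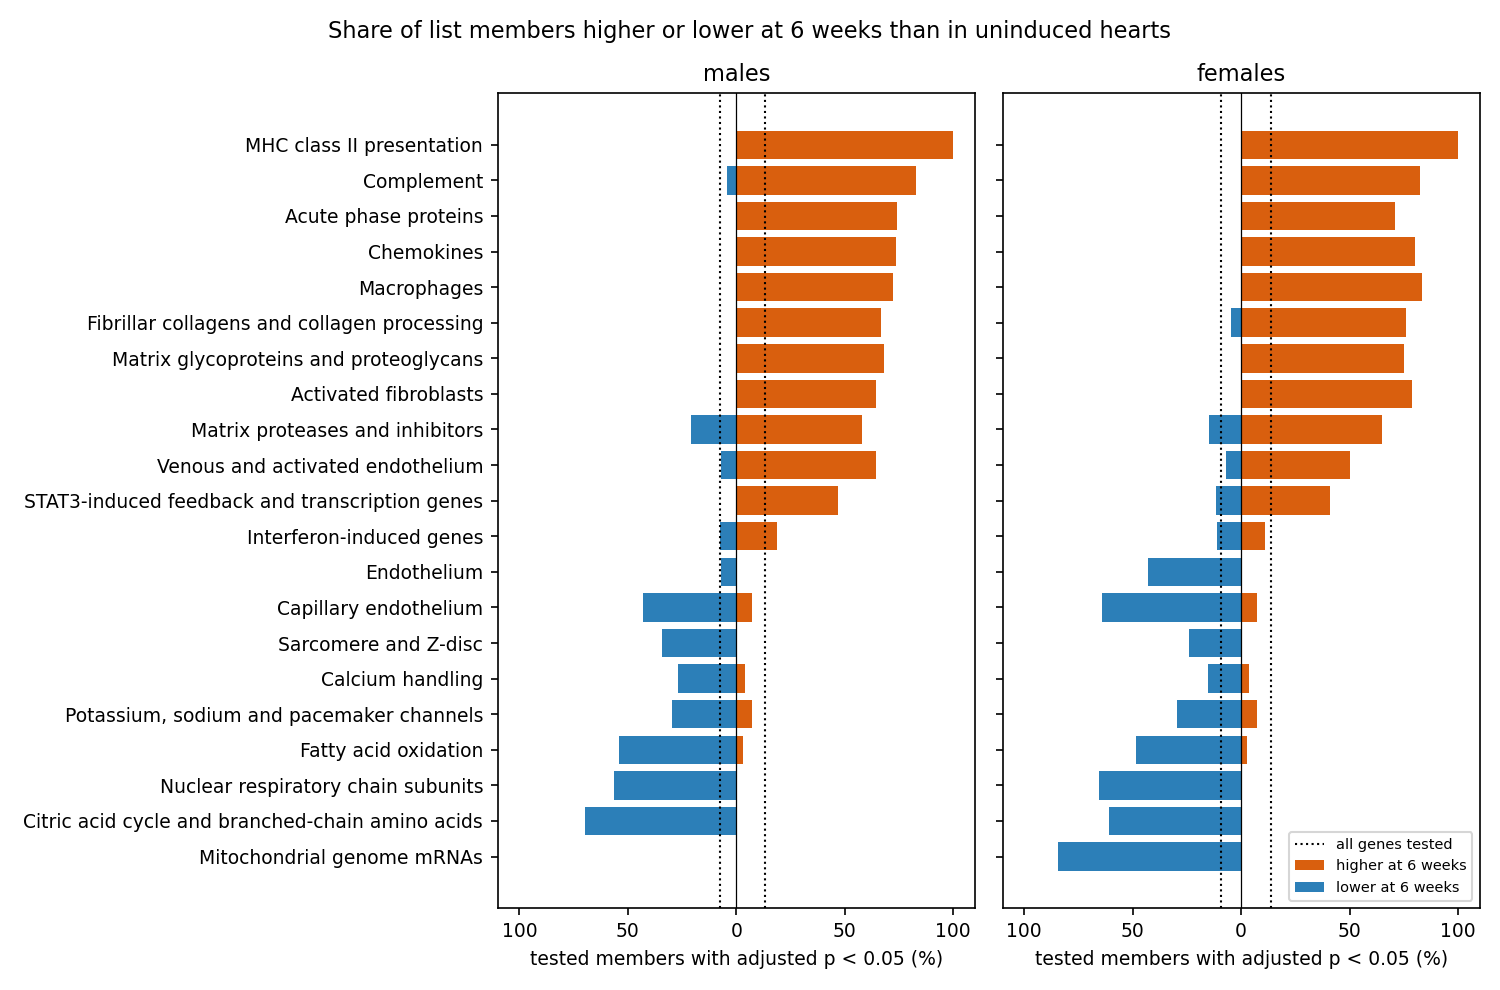
Percent of tested members of 21 gene lists that were higher (right) or lower (left) in 6-week than in uninduced hearts at an adjusted p under 0.05, males and females in separate bars, with dotted lines at the percent of all genes tested. Class II antigen presentation reaches 100% higher in both sexes, while the lists of heart muscle metabolism extend to the left.

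Chemokines, the secreted proteins that draw leukocytes into tissue, rose in 14 of 19 cases in males and 16 of 20 in females, and none fell. The largest rise in both sexes among genes whose groups did not overlap was that of *Cxcl13*, which attracts B cells. *Cxcl13* was 0.369, 0.0889, 0.0574 and 0 CPM in uninduced and 40.7, 58.5 and 39.5 CPM in 6-week males, and 0.0476, 0.0569, 0.0441 and 0.202 and 53, 39.1, 63.1 and 30.5 CPM in females. It was nearly absent in every uninduced heart, and the log2 fold changes on the CPM + 0.5 scale, 6.23 and 6.27, understate the change of a gene this low. *Ccl8*, a ligand for monocytes, was 2.14, 0.534, 0.918 and 0.38 CPM in uninduced and 34, 31.7 and 39.8 CPM in 6-week males and 0.952, 0.398, 3.39 and 1.29 and 33.1, 29.9, 30.8 and 24.3 CPM in females (4.71 and 4.10), without overlap. The T cell and dendritic cell attractant *Ccl19* rose by 2.67 and 3.29, the eosinophil attractant *Ccl11* by 2.72 and 3.15, *Cxcl14* by 2.49 and 2.59 and the monocyte attractant *Ccl12* by 2.18 and 2.38. The neutrophil attractant *Cxcl1* (-0.47 and -0.34) did not pass the test in either sex. *Ccl2*, the main monocyte attractant, rose in females (1.07), lost this call when single hearts were left out (0.78 to 0.93, adjusted p = 0.0539 to 0.066, without 6-week replicate 2 or uninduced replicate 1 or 4), and was 0.57 (adjusted p = 0.205) in males.

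Complement, the blood cascade that tags and lyses cells, rose as a group: 19 of 23 tested genes rose in each sex, 18 of them in both. The classical pathway component *C4b* was 5.7, 5.07 and 8.29 CPM in control, 187, 127, 112 and 125 CPM in uninduced and 530.2, 508 and 577 CPM in 6-week males. In females it was 4.43, 3.92, 4.55 and 4.93 CPM in controls, 78.4, 78.4, 79.5 and 106 CPM in uninduced and 372, 560.0, 607 and 475 CPM in 6-week hearts. The 3 groups formed 3 separate steps in both sexes, so most of the distance from control was present without tamoxifen: log2 4.33 from control to uninduced and 1.99 from uninduced to 6 weeks in males, and 4.11 and 2.54 in females. *C4b* and *C4a* are near-identical, and reads may have been split. The central component *C3* rose by 1.97 and 2.50, *C6* of the lytic complex by 3.73 and 3.55, factor B (*Cfb*) by 2.34 and 2.58 and the inhibitory protease *Cfi* by 4.70 and 5.04. *Cfd*, the adipocyte-made factor D, went the other way: it fell in males (-1.40) and was -0.83 (adjusted p = 0.1997) in females. Against control, 7 complement genes in males and 16 in females were already higher in uninduced hearts, where 0.561% and 2.41% of all genes were higher.

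Class II antigen presentation was the only list of the 61 in which every tested member rose in both sexes, 10 of 10. *H2-Ab1*, a chain of the class II molecule, was 54.5, 58.4, 47.3 and 49.7 CPM in uninduced and 251, 258 and 166 CPM in 6-week males. The female values were 44.4, 46.5, 43.2 and 105 and 306, 346, 270.0 and 290.4 CPM. Each 6-week heart was above each uninduced heart, and the log2 fold changes were 2.07 ± 0.27 (limma, adjusted p = 1.47e-05) and 2.44 ± 0.24 (adjusted p = 2.26e-07). The invariant chain *Cd74* rose by 2.16 and 2.25 and *Ciita*, the regulator of class II transcription, by 1.66 and 1.71. Class I genes moved less: 4 of 15 rose in males and 8 in females. Leaving out any 1 male heart brought the male count to 0 to 2, and the female count was 5 without uninduced replicate 2. Of 27 interferon-induced genes, 5 rose and 2 fell in males, and 3 rose and 3 fell in females, near the shares of all genes. *Rsad2* fell in both (-0.93 and -1.42), in males losing the call with single hearts left out (-0.81 to -0.71, adjusted p = 0.0707 to 0.0999, without 6-week replicate 1 or uninduced replicate 3 or 4).

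Markers of myeloid cells rose with these genes. Of 18 macrophage markers, 13 rose in males and 15 in females, and their summed level was 302 to 460.4 CPM in uninduced and 824 to 1194 CPM in 6-week males and 359.6 to 456 and 999 to 1164 CPM in females. In bulk tissue more cells of a type and more RNA per cell cannot be told apart, nor fewer cells and less RNA, for this and every list that follows. *Cd68* was 8.19, 6.88, 6.08 and 7.27 CPM before and 15.6, 21.9 and 31.4 CPM after induction in males, and 9.99, 8.94, 12.6 and 11.2 and 20.3, 26.1, 24.4 and 18.9 CPM in females (1.58 and 1.03), without overlap in either sex. The resident macrophage markers *Timd4* (0.38 and 0.24) and *Cd163* (0.37 and 0.20) did not pass the test. Among monocyte markers the receptor *Ccr2* rose by 2.77 and 2.98 and *Plac8* by 3.22 and 2.91. The macrophage list holds other markers found in resident cells, such as *Folr2*, *Mrc1* and *Mertk*, which are counted above only. These values are therefore no comparison of resident with recruited cells. In females 11 of the macrophage markers were already higher in uninduced than in control hearts, where 2.41% of all genes were higher, and in males 0, against 0.561%.

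Other immune cells were seen at low levels. Of dendritic cell markers, 5 of 9 rose in males and 6 in females, among them *Cd209a* (2.36 and 2.67). T and NK cell markers summed to only 1.87 to 3.91 CPM in uninduced and 9.74 to 13.8 CPM in 6-week males and 4.66 to 5.47 and 13.2 to 22.3 CPM in females. Of those tested, 2 of 10 rose in males and 7 of 12 in females. The female count was 2 without 6-week replicate 2, 3 without uninduced replicate 1 and 4 without uninduced replicate 2. *Cd4*, which mouse macrophages and dendritic cells may also carry, rose by 2.29 and 2.10. Immunoglobulin genes rose, *Igkc* by 2.36 and 3.12, *Jchain* by 1.76 and 2.73 (in males the call was lost, 0.92, adjusted p = 0.103, without 6-week replicate 1) and *Ighm* by 1.29 and 2.11, while the B cell gene *Cd79a* (0.13 and -0.69) did not pass the test. Neutrophil markers gave 4 of 6 in each sex through *Mmp8*, *Mmp9*, *Csf3r* and *Il1r2*. The neutrophil markers *S100a8* (-0.13 and -0.11) and *S100a9* (0.17 and -0.01) were not among those that rose. *Mmp8* lost the male call with single hearts left out (0.59 to 0.80, adjusted p = 0.0529 to 0.137, without 6-week replicate 1 or 3 or uninduced replicate 1, 2, 3 or 4). Mast cell markers rose in females, 4 of 5, with the proteases *Cma1* (2.15), *Mcpt4* (1.81) and *Tpsb2* (1.59); in males only *Cma1* passed (0.97), and not with single hearts left out (0.47 to 0.99, adjusted p = 0.0685 to 0.259, without 6-week replicate 1 or uninduced replicate 2, 3 or 4). This difference between the sexes was not significant in the test of the difference itself (below).

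Genes of the interstitial matrix rose in both sexes. Of 21 genes for fibrillar collagens and their processing, 14 rose in males, and 16 rose and 1 (*Plod1*, a collagen lysyl hydroxylase) fell in females. *Col1a1*, the main chain of type I collagen, was 265, 161, 218 and 189 CPM in uninduced and 1088, 843 and 884 CPM in 6-week males. Female hearts held 236, 200.5, 247 and 266 and 1003, 1172, 2177 and 1448 CPM. The groups did not overlap, and the log2 fold changes were 2.19 ± 0.27 and 2.55 ± 0.25 (limma, adjusted p = 8.40e-06 and 2.06e-07). *Col1a2* (1.80 and 2.52), *Col3a1* (2.27 and 2.75) and *Col5a2* (1.42 and 2.03) rose similarly, and the cross-linking enzyme lysyl oxidase *Lox* rose by 2.99 and 3.61. The basement membrane collagen IV chains *Col4a3* (-1.13 and -1.14) and *Col4a4* (-1.19 and -1.43) fell in both sexes.

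Of 28 matrix glycoprotein and proteoglycan genes, 19 rose in males and 21 in females, and none fell. Fibronectin *Fn1* rose by 3.48 and 3.72, the cartilage matrix protein *Comp* by 3.74 and 4.37, *Ccn5* by 3.89 and 4.68, lubricin *Prg4* by 4.61 and 4.53, *Bgn* by 2.19 and 1.97 and *Ltbp2* by 2.06 and 3.00. *Comp* was 14, 6.88, 7.74 and 6.21 CPM in uninduced and 126, 155 and 81.5 CPM in 6-week males, and 10.4, 10.2, 11.2 and 14.5 and 159.8, 462, 282 and 179.8 CPM in females. It was low in each uninduced heart and separate from each 6-week heart. *Postn*, encoding periostin, was 47.1, 35.8, 48.4 and 38.5 CPM in uninduced and 119.5, 189 and 87.2 CPM in 6-week males, 1.56 ± 0.45 on the log2 scale (limma, adjusted p = 0.018), and 55.2, 34.4, 43.3 and 54.9 and 118, 252, 301 and 169 CPM in females, 2.09 ± 0.30 (adjusted p = 2.80e-05). The groups did not overlap, yet without male 6-week replicate 3 the male call was lost (1.27, limma adjusted p = 0.0769). The stress-induced *Ccn1* did not pass the test in either sex.

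Matrix proteases and their inhibitors moved in both directions. Of 19 tested in males 11 rose and 4 fell, and of 20 in females 13 rose and 3 fell. The male count of falls was 1 without 6-week replicate 1 and 2 without uninduced replicate 3 or 4. The stromelysin *Mmp3* was 32.5, 12.2, 11.6 and 11.7 CPM in uninduced and 224, 192 and 193 CPM in 6-week males, and 8.09, 20.7, 66.3 and 10.6 and 185, 396, 305 and 271 CPM in females (3.69 and 3.87). Male uninduced replicate 1 and female uninduced replicate 3 were the highest uninduced hearts of their sex, and neither reached the 6-week range. The gelatinases *Mmp9* and *Mmp2* rose by 3.63 and 3.88 and by 1.57 and 1.80. The inhibitors parted: *Timp1* rose (3.45 and 3.12) and *Timp4*, an inhibitor abundant in the normal heart, fell (-1.41 and -2.68). In males the call of *Timp4* was lost when single hearts were left out (-1.35 to -0.64, adjusted p = 0.0706 to 0.208, without 6-week replicate 1 or uninduced replicate 3 or 4), its value moving most without 6-week replicate 1 (-0.64).

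Markers of activated fibroblasts rose in 9 of 14 cases in males and 11 of 14 in females, among them *Cthrc1* (1.99 and 2.65) and *Sfrp2* (2.14 and 2.46). The contractile myofibroblast gene *Acta2* did not pass the test: it was -0.42 (adjusted p = 0.376) in males and -0.52 (adjusted p = 0.251) in females, and fell in females without uninduced replicate 3 (-0.82). *Meox1* (-0.29 and 0.01) and *Cilp* (-0.31 and 0.26) did not pass either. General fibroblast markers rose in 7 and fell in 2 of 14 cases in males, and rose in 9 and fell in 3 in females. *Pi16* (2.31 and 2.30), *Cd248* (1.77 and 1.28) and *Dpt* (1.47 and 1.91) rose, while *Gsn*, an actin-severing protein abundant in resting fibroblasts, fell from 762, 825, 899 and 858 CPM in uninduced to 308, 412 and 396 CPM in 6-week males, and from 971, 1028, 888 and 1414 to 344, 583, 333 and 452 CPM in females (-1.18 and -1.34). The lipid transporter *Abca8a* fell with it (-1.49 and -1.35), so markers of the same cell type moved in both directions.

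Growth factor pathways of the matrix moved less than the matrix itself. Of 24 genes of the TGF-beta, BMP and activin family, 8 rose in each sex and 1 (*Bmp4*, -0.79) fell in females, the latter not with single hearts left out (-0.69 to -0.62, adjusted p = 0.0525 to 0.0599, without uninduced replicate 1 or 3). The male count of rises was 5 without uninduced replicate 2. With all hearts the ligands *Tgfb1* (0.35 and 0.23), *Tgfb2* (0.47 and 0.44) and *Tgfb3* (0.06 and 0.17) did not pass the test, whereas the receptor *Tgfbr2* rose by 1.82 and 1.56 and the activin subunit *Inhbb* by 2.16 and 2.61. With single hearts left out *Tgfb1* passed in males (0.56, adjusted p = 0.0173, without 6-week replicate 3) and in females (0.32, adjusted p = 0.0352, without uninduced replicate 4), and *Tgfb2* passed in females (0.63, adjusted p = 0.00631, without uninduced replicate 3). Of 16 genes of mesenchymal transition, 8 rose in each sex, the same 8. They included the transcription factor genes *Snai1* (1.93 and 1.42) and *Twist1* (0.72 and 1.38), the intermediate filament *Vim* (0.90 and 0.97) and the fibroblast cadherin *Cdh11* (1.13 and 1.59), while *Snai2*, *Zeb1* and *Cdh2* did not pass.

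Endothelial markers moved in both directions and differed between the lists, and a split by kind of vessel was not tested. Of 14 pan-endothelial markers none rose, 1 fell in males and 6 in females. *Cdh5*, the junctional cadherin, was 178, 165, 178 and 221 CPM in uninduced and 162, 141 and 209 CPM in 6-week males, and 225, 209, 179.8 and 194 and 131, 133, 186 and 118 CPM in females. It differed by -0.13 ± 0.17 in males (limma, adjusted p = 0.624) and fell in females (-0.52 ± 0.13), where limma gave an adjusted p of 0.00489 and the exact permutation test, two-sided, p = 0.0571. The VEGF receptor *Kdr* fell in both (-0.88 and -0.83), in males with an adjusted p of 0.0536 once 6-week replicate 4 was left out. *Pecam1* (0.07 and -0.12) and *Tek* (-0.18 and -0.20) did not pass the test.

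Capillary markers fell in 6 of 14 cases in males and 9 in females, and 1 (*Cxcl12*, 0.64 and 0.47) rose in both. The male count of falls was 3 without uninduced replicate 3, and *Cxcl12* lost the call in males (0.48, adjusted p = 0.0508, without 6-week replicate 4) and in females (0.39 to 0.45, adjusted p = 0.0517 to 0.0673, without 6-week replicate 2 or 3 or uninduced replicate 2). Carbonic anhydrase 4, *Car4*, on the surface of heart capillaries, was 16.3, 19.5, 22.3 and 26.7 CPM in uninduced and 5.34, 6.36 and 8.26 CPM in 6-week males, and 23, 21.3, 23.2 and 21.6 and 5.39, 2.92, 4.21 and 4.53 CPM in females. All 6-week hearts were below all uninduced hearts, and the log2 fold changes were -1.60 and -2.28. *Btnl9* also fell in both sexes (-0.79 and -0.96). Markers of venous and activated endothelium rose in 9 of 14 cases in males and 7 in females. The leukocyte adhesion molecules *Selp* (3.87 and 3.83), *Vcam1* (1.71 and 2.11) and *Icam1* (0.81 and 0.94), the venular chemokine receptor *Ackr1* (2.49 and 2.01) and *Plvap* (2.43 and 2.11), which forms the diaphragms of permeable vessels, rose in both sexes. *Plvap* was 15.3, 11.1, 9.75 and 7.62 CPM in uninduced and 63.9, 44.5 and 74.4 CPM in 6-week males, and 12.9, 13.7, 20.5 and 15.6 and 44.8, 113, 71.8 and 59.3 CPM in females, without overlap. *Apln*, encoding the tip cell peptide apelin, fell (-1.57 and -0.83), in females losing the call with single hearts left out (-0.68 to -0.65, adjusted p = 0.0523 to 0.0583, without 6-week replicate 4 or uninduced replicate 4). Lymphatic markers rose in 4 of 8 cases in each sex, with podoplanin *Pdpn* at 2.58 and 2.26, but *Prox1*, which defines the lineage, did not pass (-0.26 and -0.08).

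Genes of wall stress in heart muscle gave few calls. Of 17 fetal and wall stress genes 1 rose and 1 fell in males, and 3 rose in females. *Nppa*, encoding atrial natriuretic peptide, was 135, 27.5, 38.5 and 28.6 CPM in uninduced and 171, 69.2 and 57.9 CPM in 6-week males, which overlap, at 0.96 ± 0.56 (limma, adjusted p = 0.244; exact permutation test p = 0.257). In females it was 17.8, 46.3, 71.8 and 33.7 and 104, 818, 166 and 61.8 CPM, at 2.18 ± 0.59 (limma, adjusted p = 0.0101; exact permutation test p = 0.0571), and the groups overlap there too. The highest of these was female 6-week replicate 2, without which the female value was 1.43 (limma, adjusted p = 0.0409). This heart also held the atrial light chain *Myl7* at 346 CPM, which was at most 0.53 CPM in the other female uninduced and 6-week hearts. *Nppb*, encoding B-type natriuretic peptide, was 0.51 ± 0.42 in males (limma, adjusted p = 0.424) and -0.01 ± 0.37 in females (adjusted p = 0.991). *Myh7* (0.48 and 0.59) and *Acta1* (-0.89 and -1.01) did not pass the test in either sex. *Ankrd1*, a stress-induced titin-binding protein gene, was 0.83 (adjusted p = 0.103) in males and 1.26 (adjusted p = 0.0599) in females, and passed with single hearts left out, in males at 1.18, adjusted p = 0.0108 to 0.0369, without 6-week replicate 4 or uninduced replicate 1, and in females at 2.00, adjusted p = 9.81e-06, without uninduced replicate 3.

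The sarcomere list leaned downwards by small amounts, apart from *Mylk4*. Of 29 genes of the sarcomere and Z-disc none rose, 10 fell in males and 7 in females, 4 of them in both, with medians of -0.45 and -0.29. The female count was 4 without uninduced replicate 2 and 11 without uninduced replicate 3. *Mylk4*, a myosin light chain kinase gene on chromosome 13 (GRCm39, 32884810 to 32968052), was 82.2, 109, 83.6 and 126 CPM in uninduced and 6.19, 10.1 and 15.6 CPM in 6-week males. Female values were 112, 106, 12 and 166 CPM in uninduced and 8.36, 15.5, 8.25 and 13.9 CPM in 6-week hearts. The male groups did not overlap; among females uninduced replicate 3, the heart with raised *Lcn2* and *Socs3*, lay within the 6-week range. The log2 fold changes were -3.25 ± 0.28 (limma, adjusted p = 1.37e-07) and -2.61 ± 0.51 (adjusted p = 7.55e-04), and -3.44 in females without that heart. The other members that fell in both sexes were *Myoz2* (-0.75 and -0.71), *Myom1* (-0.69 and -0.51) and *Myom2* (-0.996 and -0.55), Z-disc and M-band proteins. Without male 6-week replicate 4 the male values of *Myom1* and *Myom2* were -0.42 and -0.65, and the female call of *Myom2* was lost with single hearts left out (-0.60 to -0.41, adjusted p = 0.0621 to 0.143, without 6-week replicate 1, 2 or 3 or uninduced replicate 1, 2 or 4). The main ventricular myosin *Myh6* was -0.79 (adjusted p = 0.0666) in males and -0.51 (adjusted p = 0.165) in females. The 14 defining cardiomyocyte markers summed to 88018 to 91418 CPM in uninduced and 55096 to 66843 CPM in 6-week males, and 60739 to 77567 and 52144 to 62377 CPM in females. The male ranges are separate and the female ranges overlap, and the part of this sum in the changes of other muscle genes was not tested.

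**Figure D4:**
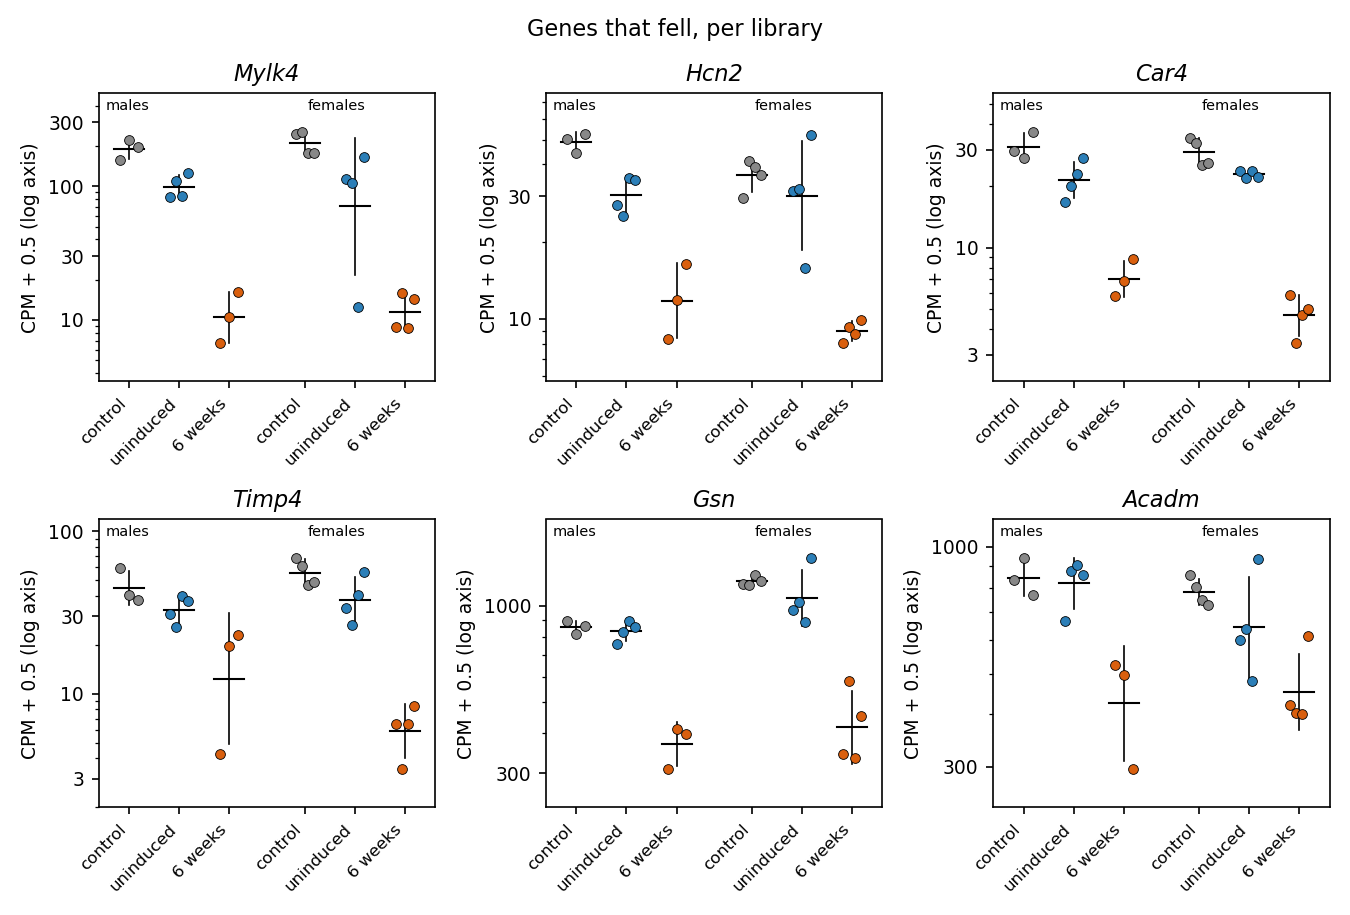
CPM of *Mylk4*, *Hcn2*, *Car4*, *Timp4*, *Gsn* and *Acadm* in each library of control, uninduced and 6-week hearts, males and females side by side, on a log axis of CPM + 0.5, where each point is 1 heart and bars give the mean and SD of the log2 values. *Mylk4* falls furthest, with 1 uninduced female heart among the 6-week values.

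Calcium handling genes fell in 7 and rose in 1 of 26 cases in males, and fell in 4 and rose in 1 in females. The female count of falls was 2 without 6-week replicate 2 and 12 without uninduced replicate 3. The skeletal calsequestrin *Casq1* (-1.77 and -0.93), the histidine-rich calcium binder *Hrc* (-0.96 and -0.52) and the calcium channel subunit *Cacna2d1* (-0.70 and -0.47) fell in both. Calls were lost for *Hrc* in males (-0.68, adjusted p = 0.0519, without 6-week replicate 4) and in females for *Casq1* (-0.81, adjusted p = 0.0501, without 6-week replicate 1) and *Cacna2d1* (-0.36, adjusted p = 0.0605, without 6-week replicate 2). The calcium pump *Atp2a2* (-0.47 and -0.15) did not pass the test. Potassium, sodium and pacemaker channel genes fell in 8 and rose in 2 of 27 cases in each sex, with female falls at 16 without uninduced replicate 3, and male falls at 4 without 6-week replicate 3 and 5 without 6-week replicate 1 or uninduced replicate 2, 3 or 4. The pacemaker channel gene *Hcn2* fell in both sexes. *Hcn2* was 27.2, 24.7, 34.9 and 34.1 CPM in uninduced and 7.87, 11.3 and 15.9 CPM in 6-week males, and 30.9, 31.5, 15.3 and 51.4 and 7.53, 8.76, 8.25 and 9.37 CPM in females (-1.37 and -1.75). The transient outward current subunit *Kcnip2* fell (-1.37 and -1.10).

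Many genes of oxidative metabolism fell in both sexes, each by less than 2-fold. Of 35 genes of fatty acid oxidation, 19 fell in males and 17 in females, 13 of them in both, with medians of -0.52 and -0.43. The female count was 8 without 6-week replicate 2, 10 without 6-week replicate 3 or uninduced replicate 4, and 29 without uninduced replicate 3. Medium-chain acyl-CoA dehydrogenase, *Acadm*, was 665, 874, 902 and 856 CPM in uninduced and 522, 496 and 296 CPM in 6-week males, and 602, 638, 480.3 and 934 and 420.2, 403, 400.1 and 614 CPM in females. The male groups did not overlap and the female groups did, with log2 fold changes of -0.95 ± 0.18 (limma, adjusted p = 0.00101) and -0.51 ± 0.15 (adjusted p = 0.0204). The female call was lost when single hearts were left out (-0.46 to -0.33, adjusted p = 0.0626 to 0.0694, without 6-week replicate 2 or 3 or uninduced replicate 4). *Hadha* (-0.52 and -0.51), *Acaa2* (-0.62 and -0.64) and *Eci1* (-0.79 and -0.60), all enzymes of β-oxidation, fell in both sexes. *Angptl4*, an inhibitor of lipoprotein lipase, was the only member that rose (1.76 and 1.73). The regulator *Ppargc1a* (-0.41 and -0.09) did not pass the test.

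Of 32 nuclear genes of the respiratory chain none rose, 18 fell in males and 21 in females, 14 of them in both. The male count was 11 without uninduced replicate 3, and the female count 9 without 6-week replicate 3 and 11 without 6-week replicate 2 or uninduced replicate 4. *Cox7a1*, a heart and muscle subunit of complex IV, fell (-0.96 and -0.72). Of 23 genes of the citric acid cycle and branched-chain amino acid breakdown, 16 fell in males and 14 in females, among them *Sucla2* (-0.94 and -0.48), and none rose. The creatine shuttle fell in 5 and 4 of 9 cases, and the male count was 1 without uninduced replicate 3 and 2 without 6-week replicate 1 or 3 or uninduced replicate 2 or 4.

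The 13 mRNAs of the mitochondrial genome gave no call in males and 11 falls in females, with medians of 0.12 and -0.66. *mt-Nd4* was 0.21 (adjusted p = 0.771) in males and -0.67 (adjusted p = 0.0293) in females, where it lost the call with single hearts left out (-0.65 to -0.49, adjusted p = 0.0653 to 0.0963, without 6-week replicate 2 or 4 or uninduced replicate 1 or 2), all by limma. The female count was 3 without 6-week replicate 2, 6-week replicate 4 or uninduced replicate 2, 5 without uninduced replicate 1 and 4 with the term for hearts of low *Malat1*, a shortfall that 3 of the 4 female 6-week hearts share. In glycolysis, genes moved both ways: 5 of 28 rose and 7 fell in males, and 3 rose and 10 fell in females. *Pfkfb3*, which raises the activator of phosphofructokinase, rose in both (1.11 and 0.98), while the muscle enolase *Eno3* (-0.77 and -0.85), hexokinase *Hk2* (-0.59 and -0.57) and *Pgk1* (-0.85 and -0.46) fell. The male count of rises was 1 without 6-week replicate 4, and the female count of falls 4 without 6-week replicate 2, 5 without 6-week replicate 3 and 6 without uninduced replicate 2 or 4.

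Among genes called in both sexes whose 6-week and uninduced hearts did not overlap in either, ranked by the smaller of the male and female fold changes, the first 15 that rose were *Cxcl13*, *Chl1*, *Cfi*, *Hp*, *Prg4*, *Il33*, *Il11*, *Ccl8*, *Cpxm1*, *Anxa8*, *Serpina3n*, *Tnfsf11*, *Ccn5*, *Selp* and *Comp*, with log2 fold changes of 3.74 to 6.23 in males and 3.83 to 6.27 in females. *Chl1*, a neural cell adhesion molecule, was 1.92, 1.69, 0.86 and 1.44 CPM in uninduced and 72.5, 79.7 and 40.5 CPM in 6-week males, and 1.81, 1.2, 2.997 and 0.85 and 91.7, 103, 178 and 85.1 CPM in females. The groups were far apart in both sexes (5.01 and 5.73). *Il33*, an alarmin of stromal cells, was 12.6, 6.26, 3.1 and 3.12 CPM in uninduced and 138, 161 and 157 CPM in 6-week males, and 9.52, 7.29, 43.7 and 9.18 and 207, 293, 349 and 261 CPM in females (4.70 and 4.34); female uninduced replicate 3 was the highest uninduced heart and still below the 6-week range. *Tnfsf11* encodes RANKL, the osteoclast-inducing cytokine (3.91 and 4.27). Of these 15 genes, 5 in males and 8 in females were also higher in uninduced than in control hearts, as were 0.561% and 2.41% of all genes, a comparison that shares the uninduced libraries.

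By the same ranking, the first 15 that fell were *Ackr4*, *D630003M21Rik*, *Car4*, *Papln*, *Timp4*, *Hcn2*, *Abca8a*, *Mycn*, *Spata33*, *Inka2*, *Col4a4*, *Gsn*, *Hr*, *Ogdhl* and *Plekhh1*. Their log2 fold changes were -2.04 to -1.15 in males and -2.68 to -1.15 in females, a far smaller range than that of the rising genes. *Mylk4* fell further (-3.25 and -2.61) but was outside this ranking, because its female groups overlapped. The scavenging chemokine receptor *Ackr4*, which removes CCL19 and CCL21, was 3.65, 5.19, 4.76 and 3.93 CPM in uninduced and 0.486, 0.671 and 0.909 CPM in 6-week males, and 5.85, 1.99, 1.19 and 5.46 and 0.436, 0.73, 0.457 and 0.524 CPM in females (-2.04 and -1.79). Its ligand genes *Ccl19* (2.67 and 3.29) and *Ccl21a* (1.45 and 1.45) rose. *Ogdhl* is related to a citric acid cycle enzyme (-1.15 and -1.79, in males -0.70 without 6-week replicate 1), *Mycn* is a growth-related transcription factor gene (-1.22 and -1.37) and *Hr* encodes a nuclear receptor corepressor (-1.54 and -1.16). Of the 15, 1 in males and 3 in females were also lower in uninduced than in control hearts, as were 0.0354% and 0.466% of all genes. The male call of *Timp4* was lost when single hearts were left out (-1.35 to -0.64, adjusted p = 0.0706 to 0.208, without 6-week replicate 1 or uninduced replicate 3 or 4).

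**Figure D5:**
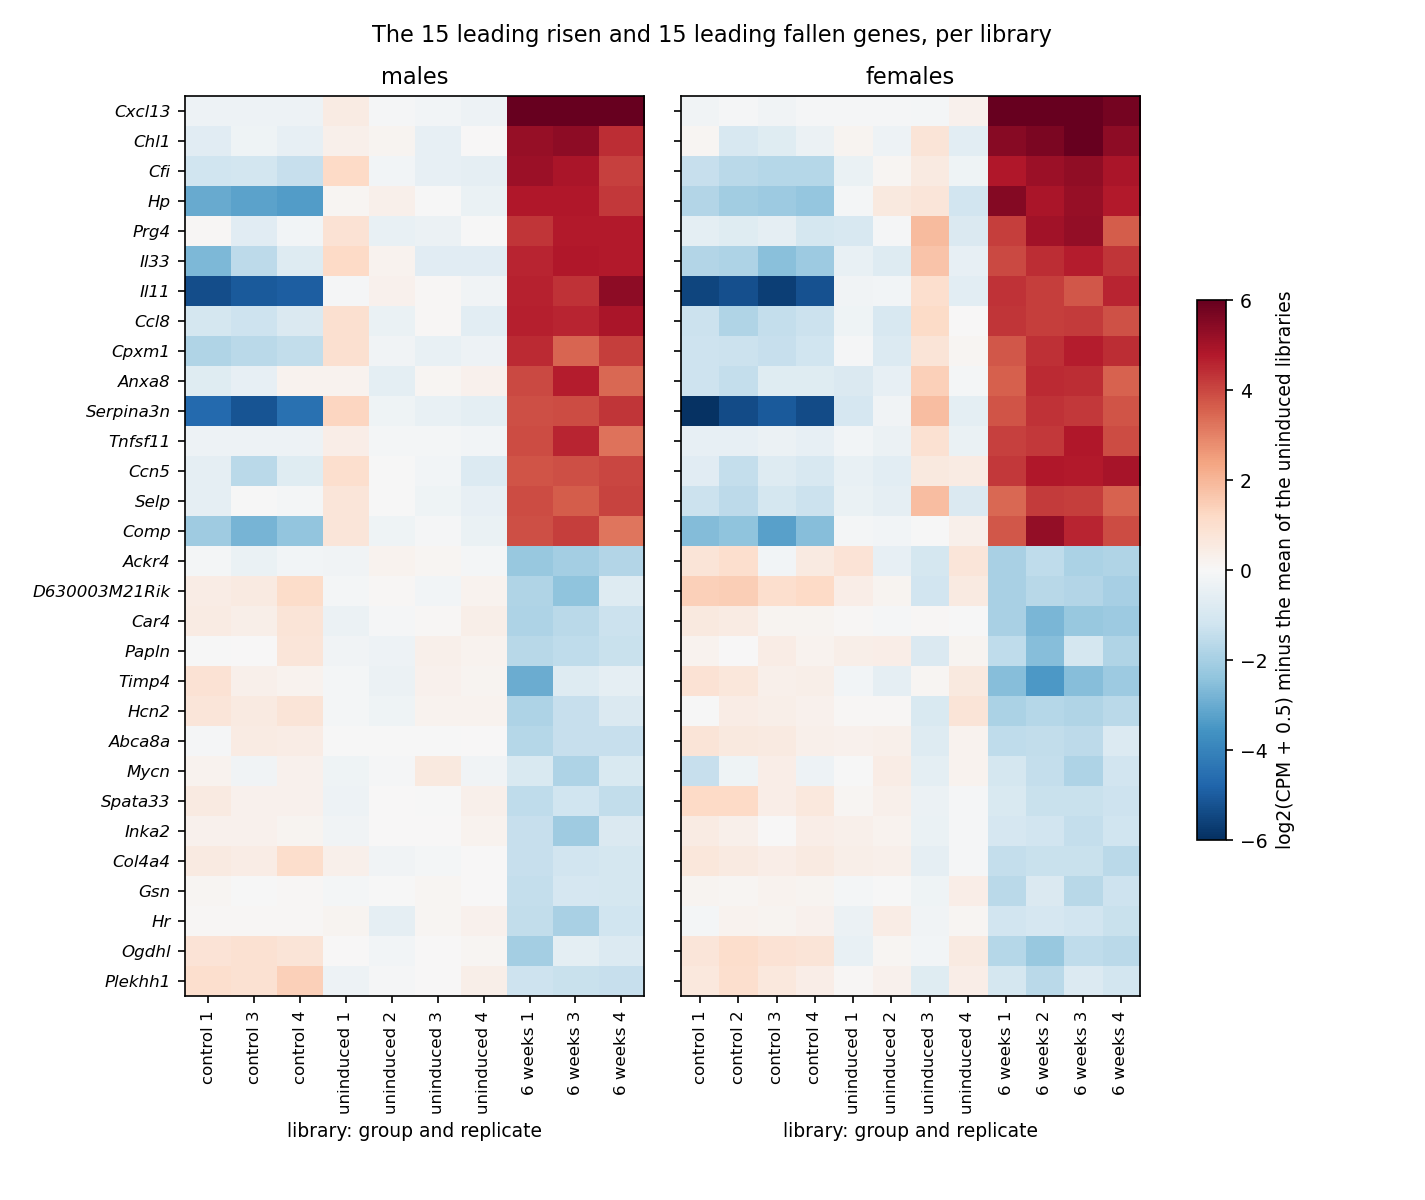
Heat map of the first 15 genes that rose and the first 15 that fell (rows) in each control, uninduced and 6-week library (columns). The genes come from the ranking in the text, which keeps only genes whose groups did not overlap in either sex. Colours give log2(CPM + 0.5) minus the mean of the uninduced hearts of that sex, with the colour scale ending at -6 and 6. The 15 risen genes lie above the uninduced mean in all 7 of the 6-week hearts, which follows from how they were chosen. Female uninduced replicate 3 differs from the other uninduced hearts in several rows.

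Hormone and growth factor genes included some large single changes. Of those tested, 11 rose and 3 fell in each sex, 10 rising in both. *Fgf23*, the bone-derived hormone of phosphate balance, was 0.332, 0.148, 0.172 and 0.0507 CPM in uninduced and 10.2, 4.34 and 8.54 CPM in 6-week males, and 0.0952, 0.0569, 1.19 and 0 and 11.4, 12, 18.3 and 10.8 CPM in females (3.54 and 4.20). It was close to zero in uninduced hearts apart from female replicate 3, and the groups did not overlap. *Vegfd*, a lymphangiogenic factor, rose by 2.45 and 2.58, *Igfbp4* by 2.76 and 2.83, *Igf1* by 1.21 and 1.28, *Hgf* by 1.47 and 1.83 and *Ace*, which makes angiotensin II, by 1.17 and 1.12. *Vegfa* fell in females (-1.08) and was -0.32 (adjusted p = 0.135) in males.

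Lists for other processes gave few calls. Of 20 proliferation genes, 0 rose in males and 2 in females (*Tyms* and *Mcm3*, the latter not with single hearts left out, 0.37 to 0.48, adjusted p = 0.0508 to 0.139, without 6-week replicate 2, 3 or 4 or uninduced replicate 2 or 4), with no call for *Mki67* (-0.81 and 0.05) or *Top2a* (-0.71 and 0.37). Of 16 p53-induced genes 2 rose in each sex and 3 fell in males and 2 in females, with *Pmaip1* rising (0.73 and 0.96) and *Cdkn1a* not passing (0.23 and -0.38). Circadian clock genes gave 0 of 19 calls in males and 1 (*Bhlhe40*) in females. Chaperones and stress genes of the endoplasmic reticulum rose in 3 of 20 cases in males and 1 in females, 7 without female uninduced replicate 3. Of the immediate early genes 2 of 18 rose in each sex, *Socs3* and *Myc* (1.29 and 0.95, the female call lost at 0.73 to 0.95, adjusted p = 0.0561 to 0.101, without 6-week replicate 2 or 3 or uninduced replicate 1, 2 or 4). Among oestrogen receptor target genes, listed because tamoxifen acts on that receptor, *Igfbp4* rose as above and the receptor gene *Esr1* fell (-1.09 and -1.27), a call lost with single hearts left out in males (-1.11 to -0.76, adjusted p = 0.0653 to 0.166, without 6-week replicate 1 or 3 or uninduced replicate 2, 3 or 4) and in females (-1.09 to -1.01, adjusted p = 0.0599 to 0.0648, without 6-week replicate 2 or uninduced replicate 1 or 2). The metal-binding metallothionein *Mt1* rose in both (1.27 and 0.90).

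Markers of tissue that could have been carried along at dissection were examined beside these results. Of the atrial list, 2 of 8 rose in males and 3 of 9 in females, through *Dkk3*, *Clec3b* and, in females, *Nppa*, and its summed level was 153 to 263 CPM in uninduced and 239 to 335 CPM in 6-week males and 158 to 184 and 273 to 1881 CPM in females, the top value from 6-week replicate 2. Mesothelial and epicardial markers summed to 4.99 to 8.03 CPM and 7.93 to 37.7 CPM in males and 12.8 to 39.9 and 18.3 to 112 CPM in females, with 3 of 9 rising in males and 0 in females. The male count of mesothelial rises was 1 without 6-week replicate 1 or 3 or uninduced replicate 4 and 8 without 6-week replicate 4 and 8 with edgeR, and the female count 1 without uninduced replicate 3 and 3 without 6-week replicate 4. Globin and other erythroid genes gave no call and summed to 1699 to 2834 and 2372 to 15974 CPM in males and 2235 to 2848 and 468 to 2703 CPM in females. Adipocyte-defining *Adipoq* and *Plin1* were not among the genes tested. The part of these levels in the changes above was not tested.

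The change between uninduced and 6-week hearts was compared between the sexes by a direct test of the difference for each of the 16627 genes. No gene passed with limma (0%), and 2167 had an unadjusted p under 0.05. The median half-width of the 95% interval of the difference was 0.46 on the log2 scale. This interval is for single genes and unadjusted, so it is not a limit of detection over all genes tested. Larger differences did not pass either, such as that of *Hsd11b2* (1.34, males minus females, limma, adjusted p = 0.252). Differences of this size can therefore go uncalled. edgeR also called 0 genes, with 2261 at an unadjusted p under 0.05, and DESeq2 called 4, *Kank3*, *Sult1a1*, *Coro2b* and *Podxl*, with 2331. The lowest adjusted p was that of *Col24a1*, a minor fibrillar collagen, named here after its values were seen. *Col24a1* was 0.148, 0.208, 0.115 and 0.177 CPM in uninduced and 0.534, 0.53 and 0.606 CPM in 6-week males, and 0.0952, 0, 0.176 and 0.0809 and 1.78, 1.72, 2.32 and 1.33 CPM in females, changes of 0.68 and 1.95 (limma, adjusted p of the difference 0.101). *Kank3*, an endothelial scaffold gene, was 50.01, 55.3, 56.3 and 58.9 CPM in uninduced and 45.4, 53.6 and 71.8 CPM in 6-week males, and 76.2, 63.6, 72.5 and 40.5 and 38.1, 23, 24 and 27.6 CPM in females, changes of 0.02 and -1.14. The count with limma depended on single hearts: it was 216 without female uninduced replicate 4, 39 without male 6-week replicate 1, 1 without male 6-week replicate 3 and 1 without female 6-week replicate 4.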

How the data were processed

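Polyadenylated RNA of mouse hearts was sequenced by the authors, with STAR alignment to GRCm39, featureCounts counts of Ensembl genes and scaling in edgeR. The signal values deposited by the authors, 1 table for each sex, are in CPM: columns sum to 817395 to 1196278, and 100% of entries come within 0.001 of whole reads once the library's own scaling is undone. Genes with few reads had been removed. From these values, log2(CPM + 0.5) was fitted with limma 3.58.1 (mean-variance trend, R 4.3.3), all assigned libraries of a sex in 1 fit without covariates, for genes at 0.5 CPM or more in at least 3 libraries. Adjustment for multiple testing was Benjamini-Hochberg, over all genes tested. The sexes were compared in a joint fit as the difference of the male and female changes. The columns do not share a total, so the values are scaled counts rather than plain CPM. The whole reads were recovered for edgeR 4.0.16 and DESeq2 1.42.0, used as alternatives. The fits were tested on simulated data.

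Groups came from the labels, and 2 male libraries with conflicting labels entered no test. Replicates are separate mice, all pairs differed by more than counting noise (lowest chi-square per gene 11.3), and no sequencing batch is named in the sources used here. Genes named are those of the ranking given in the text, all members of the gene lists and genes the study names. The members and lists were chosen with earlier results of these data known. Reads per library on listed genes ran from 16663513 to 49961134 in the 15 libraries compared and reached 65333832 in the controls. Floors of 3 reads cover counting error only. Gene positions are from GENCODE on GRCm39, and promoter sequences from RefSeq (GRCm38.p6), matched by symbol. Some members of the lists, among them some whose call depended on single hearts, are counted but not reported here by name.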

Additional observations from a re-analysis of the deposited data

Results flagged for a closer look

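Single hearts far from the rest of their group were looked for in 39 genes, where the gap of the highest or lowest heart to its neighbour was large against the range of its group. This was so in 21 of 117 groups of 4 hearts, where chance gives about 1 in 20, and the genes are not independent of one another. Groups of 3, the male 6-week and control hearts, were not examined.

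Female uninduced replicate 3 accounted for 8 of these. It was the highest of its group in *Socs3* (56.1 CPM), *Serpina3n* (421 CPM), *Lcn2* (78.8 CPM), *Timp1* (29.1 CPM), *Itih4* (14.1 CPM), *Il33* (43.7 CPM), *Selp* (5.82 CPM) and *Fgf23* (1.19 CPM). Its *Il11* level was 49.1 CPM, against 15.5 to 21.4 CPM in the other female uninduced hearts, and its *Mylk4* level of 11.99 CPM was in the 6-week range.

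In female uninduced replicate 4, *C4b* (106 CPM), *H2-Ab1* (105 CPM) and *Cxcl13* (0.202 CPM) were the highest and *Malat1* (236 CPM) the lowest of the group. In male uninduced replicate 1, *Serpina3n* (256 CPM), *Lcn2* (7.34 CPM), *Mmp3* (32.5 CPM) and *Nppa* (135 CPM) were the highest. Among female 6-week hearts, replicate 2 stood apart in *Nppa* (818 CPM), replicate 3 in *Kdr* (119 CPM) and *Fgf23* (18.3 CPM), replicate 4 in *Acadm* (614 CPM) and replicate 1 in *Malat1* (811 CPM), each as the highest.

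The 2 male libraries outside every group held *Il11* above the highest male control (0.147 CPM). The library whose column is named control, with 6 weeks in its title, held 0.597 CPM, and the library whose column is named 6 weeks, with control in its title, held 511 CPM.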

How the results depend on the processing

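Counts of called genes depended on how low values and tests were treated. With a pseudocount of 2 they were 502 in males, 545 in females and 361 in both. With edgeR on recovered reads they were 1427 in males, and with DESeq2 1444 in males and 1469 in females, with 4 for the difference between the sexes. With no minimum fold change they were 3450, 3860 and 1971. Leaving out 1 heart at a time gave 893 to 1072 in males, 892 to 1218 in females, 602 to 700 in both and 0 to 216 for the difference between the sexes, the highest without female uninduced replicate 4. The *Il11* change ranged from 4.48 to 4.99 in males and from 3.98 to 4.53 in females. None of the 383 single-gene changes past the threshold changed direction, while 49 of the 130 not past it did under some setting, such as *Nppb* in females (-0.41 to 0.41 with single hearts left out). Same-numbered hearts of the 2 groups do not share an animal, and their deviations correlated at -0.11 to 0.05 in males and -0.23 to 0.36 in females. With the replicate number as a block (replicate block) the counts were 961, 965, 643 and 0. The term for low *Malat1* gave 679 genes in both. The fits without male 6-week replicate 4 and female uninduced replicate 3 gave 715. Both settings were chosen after seeing the data. Genes at few reads were limited by depth, and fold changes on the CPM + 0.5 scale understate their change. Of 513 changes of single genes in 1 sex, 103 changed their side of the threshold under some setting, the cause of which was not tested.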

Other observations

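Genes of neurons and Schwann cells were low in all hearts. *Mbp*, of the myelin sheath, rose in both sexes (1.08 and 1.16), and *Dbh*, which makes noradrenaline in sympathetic nerves, fell in males (-1.09; females -0.73 (adjusted p = 0.0512), limma, and -0.95 to -0.85, adjusted p = 0.01003 to 0.0456, without uninduced replicate 2 or 3). The imprinted *H19* rose in both sexes (2.11 and 1.29), in females losing the call with single hearts left out (0.93 to 1.04, adjusted p = 0.0539 to 0.0784, without 6-week replicate 2 or uninduced replicate 4). Its neighbour *Igf2* rose in males (1.51), where it lost the call (0.84, adjusted p = 0.104, without 6-week replicate 4), and was 0.45 (adjusted p = 0.263) in females. Lysosomal *Ctsb* rose in both (0.65 and 0.76). Of 22 cardiac transcription factor genes 1 fell in females with all hearts, and 7 fell without uninduced replicate 3. Among cardiac transcription factors *Hopx* fell in both sexes (-1.05 and -0.62), in females losing the call with single hearts left out (-0.61 to -0.44, adjusted p = 0.0788 to 0.154, without 6-week replicate 1, 2 or 3 or uninduced replicate 1, 2 or 4) and at -0.94 without uninduced replicate 3, while *Nkx2-5* (0.13 and -0.25) and *Tbx5* (-0.01 and 0.16) did not pass the test.

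The male library whose title gives control and whose description gives 6 weeks held *Serpina3n* at 1559 CPM, *Col1a1* at 961 CPM, *Timp1* at 40.2 CPM and *Mylk4* at 15.3 CPM. The male library whose title gives 6 weeks and whose description gives control held 4.66, 156, 0.677 and 201 CPM of the same genes.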
